A study of Homo sapiens with 3 samples.

Results

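The proteasome genes of MDA-MB-231 cells, an established human triple-negative breast cancer line, were followed in a Geminin/FoxO3 co-depletion, a FoxO3 depletion and a control. They were taken by name, as every protein-coding gene whose GENCODE 29 symbol begins with PSMA, PSMB, PSMC, PSMD, PSME, PSMF or PSMG, together with POMP. GENCODE 29 holds 50 such genes, and 49 of them were matched by gene ID among the 48162 genes listed for each library. PSMB3 was not matched and is not analysed here. Levels are in FPKM, the reads of a gene divided by its transcript length and by the library's total, and the mean over the 3 libraries reached 1 FPKM for 46 of the 49 genes. These 46 were compared, among 12649 named genes that reached the same mean. The others were PSMA8, the testis form of an alpha subunit, listed at 0 in all 3 libraries, and PSMB11, the thymus form of a beta subunit, listed at 0 in the co-depletion, 0 in the FoxO3 depletion and 0.0364 FPKM in the control. PSMG2, an assembly chaperone, had 0.386 FPKM in the co-depletion, 0.528 in the FoxO3 depletion and 0.456 in the control.

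The 3 cultures, the control included, were exposed to lentivirus for 24 h in medium with 10% serum and collected 72 h after that medium was replaced. Each group is 1 library, so a difference lies between 2 libraries, has no replicate check and is given no p-value. The sequences that depleted FoxO3 and Geminin, the vector of the control and whether the cells were a pool or a clone are not given in the labels used here.

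FOXO3 (ENSG00000118689) stood at 2.94 FPKM in the co-depletion, 2.79 in the FoxO3 depletion and 12.2 in the control. GMNN (ENSG00000112312), which encodes Geminin, had 37 FPKM in the co-depletion, 112 in the FoxO3 depletion and 112 in the control, so both genes were low in the libraries named for them. The totals behind the FPKM values came to 12267332 reads for the co-depletion, 10760613 for the FoxO3 depletion and 14507410 for the control. The line's mesenchymal markers were abundant, with VIM between 574 and 607 FPKM and CD44 between 631 and 935 FPKM. The receptor genes ESR1 and PGR stayed at 0.119 FPKM or less in each library. ERBB2, the remaining receptor gene of the triple-negative definition, was not low. It had 46.8 FPKM in the co-depletion, 41.6 in the FoxO3 depletion and 38 in the control, above the median of all analysed genes in each.

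The proteasome degrades proteins that carry ubiquitin chains. Its core particle is a barrel of stacked alpha and beta rings with the proteolytic sites inside, and a regulatory cap of base and lid binds the chain, removes it, unfolds the substrate and feeds it through the alpha ring. Under interferon, new particles take in immunoproteasome subunits in place of the constitutive catalytic ones, and dedicated chaperones that are absent from the finished particle guide assembly. FoxO3 is a forkhead transcription factor known in wasting muscle for driving ubiquitin ligase genes, and Geminin, an inhibitor of replication licensing, is itself destroyed by the proteasome as cells leave mitosis.

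The base of the cap is driven by a ring of related ATPases, PSMC1 to PSMC6, and 1 of them went the other way from the rest before GC content was adjusted for. The coding stretches around their ATP-binding loop are shown to let the members be told apart, from the longest coding transcript of each gene in GENCODE 29, 66 bases each, with the 24 bases of the loop in capitals.

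PSMC1: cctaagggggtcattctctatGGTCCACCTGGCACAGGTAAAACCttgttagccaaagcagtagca
PSMC2: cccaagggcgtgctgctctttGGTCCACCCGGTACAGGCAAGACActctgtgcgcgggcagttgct
PSMC3: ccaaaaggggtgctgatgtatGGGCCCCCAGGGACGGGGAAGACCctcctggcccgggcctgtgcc
PSMC4: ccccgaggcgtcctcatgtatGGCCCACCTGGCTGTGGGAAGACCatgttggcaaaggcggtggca
PSMC5: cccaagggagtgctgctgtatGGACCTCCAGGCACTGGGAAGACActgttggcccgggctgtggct
PSMC6: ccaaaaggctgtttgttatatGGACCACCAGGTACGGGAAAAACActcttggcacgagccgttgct

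PSMC2 and PSMC5 were the most alike over this stretch, with 51 of 66 bases identical, and PSMC4 and PSMC6 the least alike, with 39 of 66. PSMC4 used G or C at 71.5% of the third codon bases over its whole coding sequence, against 35.7% in PSMC6. The GC content of the coding sequence was 55.1% in PSMC4 and 41.6% in PSMC6, with 55.7% in PSMC3, 51.6% in PSMC5, 45.8% in PSMC1 and 45.7% in PSMC2.

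Most proteasome genes stood somewhat higher in each depleted library than in the control, and all but PSMA6 by less than 1.5-fold on the scale described below. The 46 genes summed to 7414 FPKM in the co-depletion, 7532 in the FoxO3 depletion and 6274 in the control. That was 1.03% of all FPKM in the co-depletion, 1.05% in the FoxO3 depletion and 0.894% in the control. The median proteasome gene had 139 FPKM in the co-depletion, 142 in the FoxO3 depletion and 111 in the control, while the median of all analysed genes was 17.6 FPKM in the co-depletion, 17 in the FoxO3 depletion and 19.5 in the control. In RNA from a bulk culture, fewer cells that express a gene and less RNA per cell cannot be told apart.

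Ratios were taken as log2 of (FPKM + 1) over (FPKM + 1), which understates differences of low genes, and a gene is called higher when it stands at least 25% above on that scale and lower when at least 20% below. In the co-depletion against the control, 17 of the 46 genes were called higher and 4 lower, where 13.8% of all analysed genes were called higher and 26.6% lower. Their median log2 ratio was 0.29, against -0.06 over all analysed genes, and 34 of the 46 lay above 0. Of all analysed genes, 43.7% lay above 0. In the FoxO3 depletion against the control, 19 were called higher and 4 lower, with 14.2% of all analysed genes called higher and 30.2% lower. Here the median was 0.25, against -0.07 over all analysed genes, and again 34 lay above 0. The share of all analysed genes above 0 was 42.9%. Both comparisons use the same control library, so they are not independent of each other. With a stricter rule of 1.5-fold, none of the 46 was called in the co-depletion, against 4.02% of all analysed genes called higher and 12.3% lower. PSMA6 alone passed that rule in the FoxO3 depletion, as higher, against 4% of all analysed genes called higher and 16.7% lower. Exact 95% counting intervals of the FPKM ratio, which cover counting error only, lay wholly above 1 for 28 genes in the co-depletion and for 30 in the FoxO3 depletion. They lay wholly below 1 for 8 genes in the co-depletion and 7 in the FoxO3 depletion. The share of all analysed genes with such intervals is not given here, so these counts are no result about the proteasome genes.

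Abundant genes as a whole were also higher in the depleted libraries. Among the 3106 genes whose mean reached 50 FPKM, the median log2 ratio was 0.09 in the co-depletion and 0.11 in the FoxO3 depletion, and 18.3% of them were called higher in the co-depletion and 22% in the FoxO3 depletion. Of the 37 proteasome genes in that range, 14 were called higher in the co-depletion and 18 in the FoxO3 depletion, with median log2 ratios of 0.29 in the co-depletion and 0.31 in the FoxO3 depletion. Among these 37, 78.4% lay above 0 in each comparison. Among the 3106 genes it was 61.5% in the co-depletion and 62.7% in the FoxO3 depletion. When the running median at each gene's mean level was subtracted, the median of the 46 genes was 0.16 in the co-depletion and 0.15 in the FoxO3 depletion. The calls then came to 8 higher and 5 lower in the co-depletion, and 7 higher and 4 lower in the FoxO3 depletion. Of all analysed genes, 16.7% were then called higher and 20.9% lower in the co-depletion, and 18.2% higher and 23.6% lower in the FoxO3 depletion, so the members' share of higher calls was then near that of all genes.

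**Figure D1:**
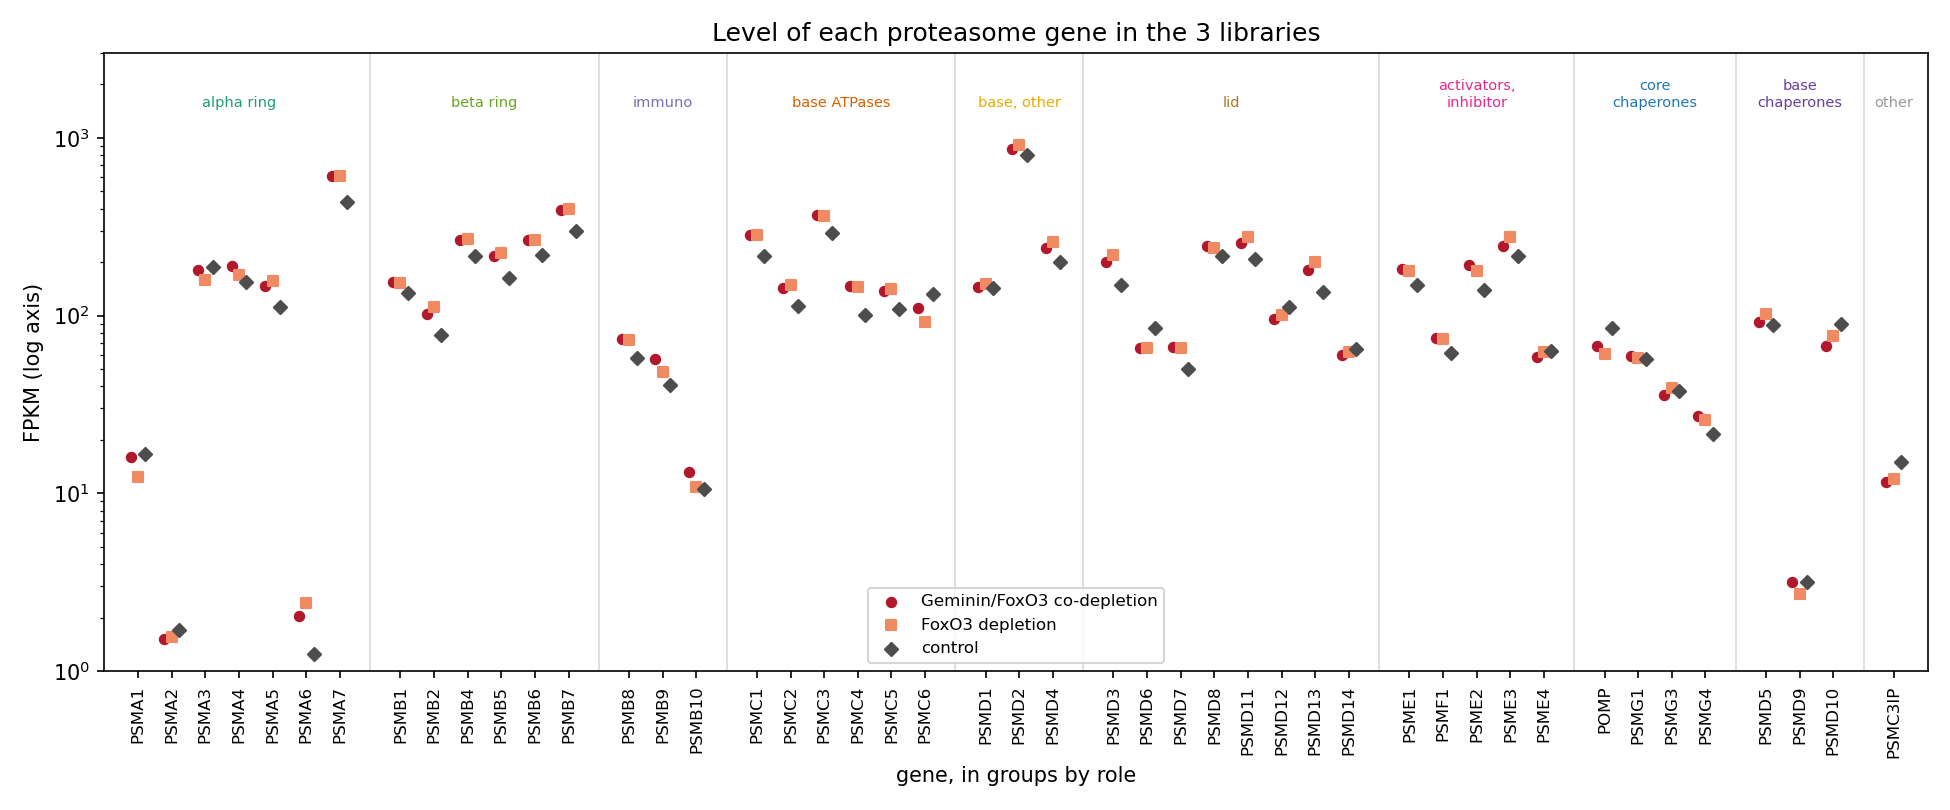
FPKM of each of the 46 proteasome genes (log axis) in the co-depletion (circles), FoxO3 depletion (squares) and control (diamonds), 1 library each, in groups by role. PSMD2 and PSMA7 are the most abundant, most core and ATPase genes have the control as their lowest point, and PSMC6, PSMD6, POMP and PSMD10 have it as their highest.

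The alpha ring forms the gate of the core particle, and its members differed widely. PSMA7 (ENSG00000101182) had 611 FPKM in the co-depletion, 613 in the FoxO3 depletion and 438 in the control, a ratio of 1.4 (counting interval 1.35 to 1.45) for each depletion. PSMA5 (ENSG00000143106) had 146 FPKM in the co-depletion, 156 in the FoxO3 depletion and 111 in the control, with ratios of 1.32 (1.245 to 1.4) in the co-depletion and 1.4 (1.32 to 1.49) in the FoxO3 depletion. Both were called higher in both depleted libraries. PSMA4 had 189 FPKM in the co-depletion, 170.0 in the FoxO3 depletion and 154 in the control, and was not called in either. PSMA3 had 180.2 FPKM in the co-depletion, 159 in the FoxO3 depletion and 187 in the control, so it was not among the genes that stood above the control. PSMA1, PSMA2 and PSMA6 had far lower values, which are treated with the exon-sharing genes below. Over the 7 alpha genes the median log2 ratio was 0.30 in the co-depletion, with 3 called higher, and 0.14 in the FoxO3 depletion, with 3 called higher and PSMA1 lower. Of all analysed genes, 13.8% were called higher and 26.6% lower in the co-depletion, and 14.2% higher and 30.2% lower in the FoxO3 depletion.

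The beta ring carries the proteolytic sites, and all 6 measured constitutive members lay above the control in both depleted libraries. Their median log2 ratio was 0.34 in the co-depletion and 0.38 in the FoxO3 depletion. PSMB5 (ENSG00000100804), the chymotrypsin-like subunit and main target of the drug bortezomib, had 215 FPKM in the co-depletion, 224 in the FoxO3 depletion and 163 in the control, with ratios of 1.32 (1.24 to 1.4) in the co-depletion and 1.38 (1.3 to 1.47) in the FoxO3 depletion. PSMB7, the trypsin-like subunit, had 393 FPKM in the co-depletion, 398 in the FoxO3 depletion and 299 in the control, and was called higher in both. PSMB6, the caspase-like subunit, had 267 FPKM in the co-depletion, 265 in the FoxO3 depletion and 218 in the control, which fell short of the call with a ratio of 1.22 for each depletion. Of the non-catalytic members, PSMB2 had 102 FPKM in the co-depletion, 111 in the FoxO3 depletion and 78 in the control, and was called higher in both. PSMB4 had 267 FPKM in the co-depletion, 271 in the FoxO3 depletion and 215 in the control, and was called only in the FoxO3 depletion, at a ratio of 1.26 against 1.24 in the co-depletion. PSMB1, at 154 FPKM in the co-depletion, 152 in the FoxO3 depletion and 134 in the control, was called in neither. For the 13 constitutive core genes together, FPKM summed to 2543 in the co-depletion, 2537 in the FoxO3 depletion and 2016 in the control.

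**Figure D2:**
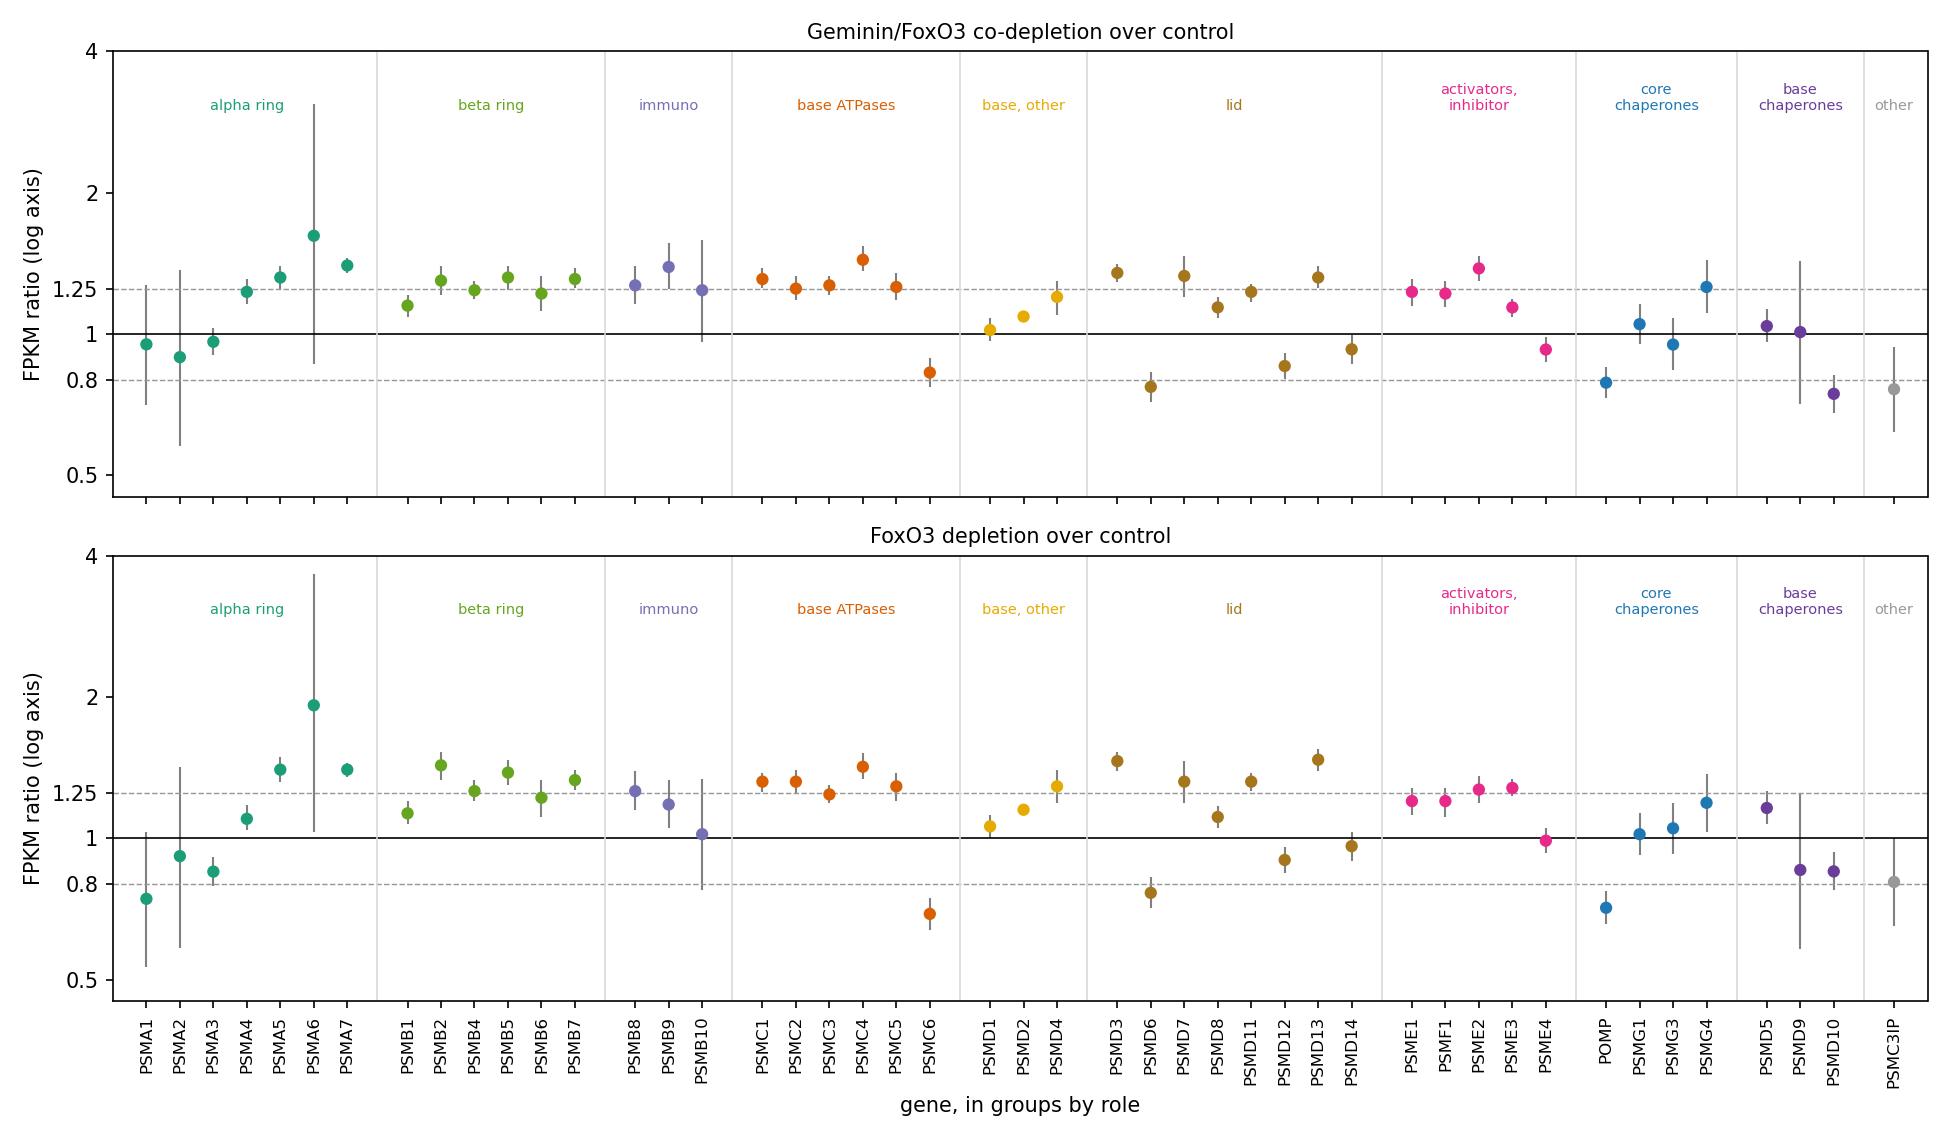
FPKM ratio to the control (log axis) of each proteasome gene in the co-depletion (upper panel) and the FoxO3 depletion (lower panel), coloured by role, with exact 95% counting intervals as bars and dashed lines at 25% above and 20% below the control. The beta ring and 5 of the 6 ATPases lie above 1 in both panels with their intervals, while POMP, PSMC6, PSMD6 and PSMD10 lie below 1, and the widest intervals belong to PSMA1, PSMA2, PSMA6, PSMB10 and PSMD9.

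Immunoproteasome subunits were present in these cells without an added interferon being named in the labels. PSMB8 (ENSG00000204264), the inducible counterpart of PSMB5, had 73.9 FPKM in the co-depletion, 73.2 in the FoxO3 depletion and 57.9 in the control, and was called higher in both, with ratios of 1.27 (1.16 to 1.4) in the co-depletion and 1.26 (1.15 to 1.39) in the FoxO3 depletion. Both calls ended when GC content was adjusted for, at log2 ratios of 0.30 in the co-depletion and 0.29 in the FoxO3 depletion. PSMB9 (ENSG00000240065), the counterpart of PSMB6, had 56.6 FPKM in the co-depletion, 48 in the FoxO3 depletion and 40.6 in the control. It was called higher in the co-depletion, at 1.39 (1.246 to 1.56), and not in the FoxO3 depletion, at 1.18 (1.05 to 1.33). Its ratio between the co-depletion and the FoxO3 depletion was 1.18 (1.05 to 1.33), which is short of the call. PSMB10, the counterpart of PSMB7, had 13.1 FPKM in the co-depletion, 10.8 in the FoxO3 depletion and 10.6 in the control, with counting intervals that span 1 in each comparison.

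Relative to their constitutive counterparts, the inducible subunits took no common unadjusted direction against the control in the co-depletion. In the FoxO3 depletion each stood lower than in the control, PSMB9 by only -0.05 in log2. Each stood higher in the co-depletion than in the FoxO3 depletion, PSMB8 by only 0.08. Both lie within 0.10, the median half-width of a counting interval. After adjustment for mean level, PSMB9 lay above PSMB6 in the FoxO3 depletion, at 0.22 against 0.10. In the co-depletion each inducible subunit then lay above its counterpart. The directions thus depend on the processing, and no shared pattern is shown. PSMB8 stood at 34.4% of the PSMB5 level per length in the co-depletion, 32.6% in the FoxO3 depletion and 35.6% in the control. PSMB9 stood at 21.2% of PSMB6 in the co-depletion, 18.1% in the FoxO3 depletion and 18.6% in the control, and PSMB10 at 3.34% of PSMB7 in the co-depletion, 2.72% in the FoxO3 depletion and 3.55% in the control. The log2 ratio of PSMB9 to the control exceeded that of PSMB6 by 0.18 in the co-depletion, and differed from it by -0.05 in the FoxO3 depletion. For PSMB8 and PSMB5 the differences were -0.05 in the co-depletion and -0.13 in the FoxO3 depletion, and for PSMB10 and PSMB7 they were -0.11 in the co-depletion and -0.39 in the FoxO3 depletion. Between the co-depletion and the FoxO3 depletion the difference was 0.08 for PSMB8, 0.23 for PSMB9 and 0.28 for PSMB10, where the counting interval of PSMB10 itself spans 1.

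Leukocytes carry a constitutive immunoproteasome, and their markers were low or listed at 0 in these libraries. The 10 leukocyte markers summed to 11.8 FPKM in the co-depletion, 10.1 in the FoxO3 depletion and 12.3 in the control, and CD3E, CD68, NKG7 and MS4A1 were listed at 0 in all 3. PTPRC, which all leukocytes carry, had 0.0752 FPKM in the co-depletion, 0 in the FoxO3 depletion and 0.191 in the control. Most of the sum was CD14, a monocyte receptor, with 8.59 FPKM in the co-depletion, 8.09 in the FoxO3 depletion and 6.76 in the control. CD14 lay above the control in both, like most proteasome genes, but was not called. Its ratios were 1.27 (0.968 to 1.67) in the co-depletion and 1.2 (0.898 to 1.59) in the FoxO3 depletion, with intervals that span 1. The macrophage receptor CSF1R went the other way, with 1.62 FPKM in the co-depletion, 1.48 in the FoxO3 depletion and 3.75 in the control. The 4 fibroblast markers summed to 24.7 FPKM in the co-depletion, 25.5 in the FoxO3 depletion and 13.7 in the control, and so were also higher in the depleted libraries. COL1A1 made up nearly all of this, with 24.3 FPKM in the co-depletion, 25.3 in the FoxO3 depletion and 13.4 in the control, and DCN was listed at 0 in both depleted libraries. The part of other cells in the result was not tested.

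The activators open the gate of the core in place of the cap. PSME2 (ENSG00000100911), the beta subunit of the interferon-inducible activator PA28, had 193 FPKM in the co-depletion, 177 in the FoxO3 depletion and 139 in the control, and was called higher in both, with ratios of 1.38 (1.3 to 1.47) in the co-depletion and 1.27 (1.19 to 1.36) in the FoxO3 depletion. The call in the FoxO3 depletion ended after GC adjustment, at a log2 ratio of 0.27. Its partner PSME1, the alpha subunit, had 182 FPKM in the co-depletion, 177 in the FoxO3 depletion and 148 in the control, with ratios of 1.23 in the co-depletion and 1.2 in the FoxO3 depletion that fell short of the call. PSME3, the nuclear PA28 gamma, had 246 FPKM in the co-depletion, 277 in the FoxO3 depletion and 216 in the control, and was called higher only in the FoxO3 depletion, at 1.28 (1.23 to 1.34). Its direct ratio between the co-depletion and the FoxO3 depletion was 0.89 (0.852 to 0.93). PSME4, which encodes the activator PA200, had 58.8 FPKM in the co-depletion, 62.7 in the FoxO3 depletion and 63.5 in the control and was not called. PSMF1, an inhibitor that binds the core, had 75.2 FPKM in the co-depletion, 73.9 in the FoxO3 depletion and 61.8 in the control, short of the call in both.

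The class I antigen pathway takes up peptides that the proteasome makes, and several of its genes were higher in the depleted libraries. Of 13 measured genes, 7 were called higher and none lower in the co-depletion, while 5 were called higher and 1 lower in the FoxO3 depletion. Over all analysed genes these shares were 13.8% higher and 26.6% lower in the co-depletion, and 14.2% higher and 30.2% lower in the FoxO3 depletion. The median log2 ratio was 0.34 in the co-depletion and 0.23 in the FoxO3 depletion. TAP1, which transports peptides into the endoplasmic reticulum, had 87 FPKM in the co-depletion, 81 in the FoxO3 depletion and 43.9 in the control, ratios of 1.98 (1.85 to 2.12) in the co-depletion and 1.84 (1.72 to 1.98) in the FoxO3 depletion. HLA-B, a class I heavy chain, had 655 FPKM in the co-depletion, 599 in the FoxO3 depletion and 418 in the control. Reads of the class I heavy chain genes can be split among near-identical copies, so their values are uncertain. ERAP2, a peptide-trimming protease, was the member called lower, with 6.72 FPKM in the FoxO3 depletion against 9.86 in the control. That call ended after GC adjustment, at a log2 ratio of -0.20. Among 6 genes that induce the immunoproteasome, 2 were called higher and 2 lower in each comparison with the control, too few to set against those shares. The interferon regulatory factor IRF1 had 76.3 FPKM in the co-depletion, 71.4 in the FoxO3 depletion and 45.6 in the control.

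**Figure D3:**
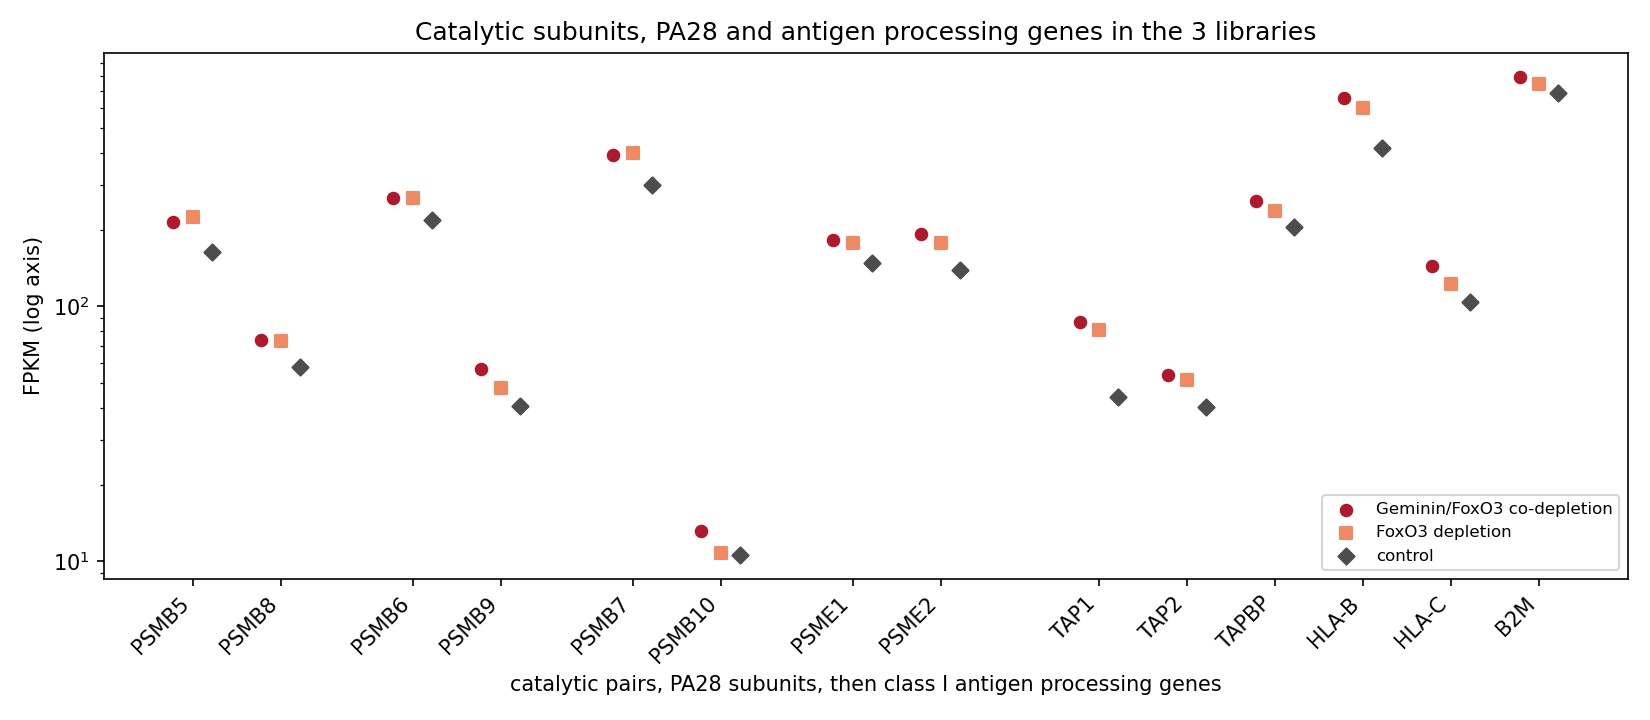
FPKM (log axis) of the constitutive and inducible catalytic subunits in pairs, the PA28 subunits and class I antigen processing genes in the co-depletion (circles), FoxO3 depletion (squares) and control (diamonds), 1 library each. PSMB8, PSMB9 and PSMB10 lie below PSMB5, PSMB6 and PSMB7 in every library, and TAP1 and HLA-B show the widest gap between the depleted libraries and the control.

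In the base of the cap, 5 of the 6 ATPases were above the control and PSMC6 was below it. PSMC4 (ENSG00000013275) had 146 FPKM in the co-depletion, 144 in the FoxO3 depletion and 101 in the control, with ratios of 1.44 (1.36 to 1.54) in the co-depletion and 1.42 (1.34 to 1.52) in the FoxO3 depletion, the highest of the ATPases before GC adjustment. PSMC6 (ENSG00000100519) had 110.0 FPKM in the co-depletion, 91.6 in the FoxO3 depletion and 133 in the control. Its ratio was 0.828 (0.77 to 0.89) in the co-depletion, short of the call, and 0.69 (0.637 to 0.747) in the FoxO3 depletion, where it was called lower. Between the co-depletion and the FoxO3 depletion its ratio was 1.2 (1.1 to 1.31). Although the ATPases assemble in equal numbers, the order of their levels thus differed between libraries: PSMC6 stood above PSMC2, PSMC4 and PSMC5 in the control, and was the lowest of the 6 in both depleted libraries.

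The remaining ATPases were closely alike. PSMC1 had 283 FPKM in the co-depletion, 283 in the FoxO3 depletion and 215 in the control, and was called higher in both. So was PSMC5, with 137 FPKM in the co-depletion, 140.3 in the FoxO3 depletion and 109 in the control, though neither call held after GC adjustment, at 0.30 in the co-depletion and 0.32 in the FoxO3 depletion. PSMC3, the most abundant ATPase at 369.6 FPKM in the co-depletion, 361 in the FoxO3 depletion and 291 in the control, was called in the co-depletion only, at 1.27, against 1.24 in the FoxO3 depletion. PSMC2 had 142 FPKM in the co-depletion, 149 in the FoxO3 depletion and 113 in the control, and was called in the FoxO3 depletion only, at 1.32, with a log2 ratio of 0.32 in the co-depletion. These single calls lie at the edge of the size rule and do not show a difference between the depletions.

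The non-ATPase part of the base holds scaffolds and ubiquitin receptors, and its members varied. PSMD2, the most abundant proteasome gene, had 866 FPKM in the co-depletion, 915 in the FoxO3 depletion and 796 in the control, ratios of 1.09 (1.06 to 1.12) in the co-depletion and 1.15 (1.12 to 1.18) in the FoxO3 depletion. PSMD1, the other large scaffold, had 145 FPKM in the co-depletion, 150.1 in the FoxO3 depletion and 142 in the control. PSMD4, a ubiquitin receptor, had 239.9 FPKM in the co-depletion, 258 in the FoxO3 depletion and 200.2 in the control, and was called higher in the FoxO3 depletion alone. ADRM1, the other ubiquitin receptor of the base, lies outside the symbol rule. It had 126 FPKM in the co-depletion, 124 in the FoxO3 depletion and 83.3 in the control, with ratios of 1.51 (1.38 to 1.64) in the co-depletion and 1.48 (1.36 to 1.62) in the FoxO3 depletion.

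The lid removes ubiquitin chains and was mixed. PSMD13 (ENSG00000185627), a structural subunit of the lid, had 180.2 FPKM in the co-depletion, 199.6 in the FoxO3 depletion and 136 in the control, with ratios of 1.32 (1.251 to 1.4) in the co-depletion and 1.47 (1.39 to 1.55) in the FoxO3 depletion. PSMD3, another structural subunit, had 201 FPKM in the co-depletion, 218 in the FoxO3 depletion and 149 in the control. PSMD7, the partner of the lid's deubiquitinase, had 66.2 FPKM in the co-depletion, 65.8 in the FoxO3 depletion and 49.8 in the control. These 3 were called higher in both depletions. PSMD11 had 255 FPKM in the co-depletion, 275 in the FoxO3 depletion and 208 in the control, and was called in the FoxO3 depletion alone. PSMD14, the deubiquitinase itself, had 60 FPKM in the co-depletion, 62.2 in the FoxO3 depletion and 64.7 in the control, and was not called. PSMD6 (ENSG00000163636) was called lower in both, with 66 FPKM in the co-depletion, 65.4 in the FoxO3 depletion and 85.5 in the control, ratios of 0.772 (0.718 to 0.83) in the co-depletion and 0.765 (0.709 to 0.825) in the FoxO3 depletion. PSMD12 had 95.4 FPKM in the co-depletion, 100.3 in the FoxO3 depletion and 112 in the control, and was not called. Nor was PSMD8, with 247 FPKM in the co-depletion, 240.2 in the FoxO3 depletion and 217 in the control. Across the 17 genes of base and lid, the median log2 ratio was 0.29 in the co-depletion, with 7 called higher and 1 lower, and 0.36 in the FoxO3 depletion, with 9 higher and 2 lower. Of all analysed genes, 13.8% were called higher and 26.6% lower in the co-depletion, and 14.2% higher and 30.2% lower in the FoxO3 depletion.

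The assembly chaperones had median ratios near the control. Their FPKM summed to 352 in the co-depletion, 365 in the FoxO3 depletion and 383 in the control. Over the 7 measured chaperones the median log2 ratio was 0.01 in the co-depletion, with 1 called higher and 2 lower, and 0.03 in the FoxO3 depletion, with none called higher and 1 lower. Of all analysed genes, 13.8% were called higher and 26.6% lower in the co-depletion, and 14.2% higher and 30.2% lower in the FoxO3 depletion. After GC adjustment the chaperone medians were 0.17 in the co-depletion and 0.09 in the FoxO3 depletion. After adjustment for mean level they were -0.07 in the co-depletion and 0.08 in the FoxO3 depletion. POMP (ENSG00000132963), which brings the beta subunits onto the alpha ring, had 67.4 FPKM in the co-depletion, 60.9 in the FoxO3 depletion and 85.6 in the control, ratios of 0.788 (0.731 to 0.85) in the co-depletion and 0.711 (0.655 to 0.771) in the FoxO3 depletion, and was called lower in both. After GC adjustment POMP was no longer below 0, at 0.25 in the co-depletion and 0.31 in the FoxO3 depletion. PSMD10, also called gankyrin, binds PSMC4 during base assembly. It had 67.1 FPKM in the co-depletion, 76.5 in the FoxO3 depletion and 89.9 in the control, and was called lower in the co-depletion alone, at 0.746 (0.679 to 0.819) against 0.85 (0.774 to 0.934) in the FoxO3 depletion. The base chaperone PSMD5 had 92 FPKM in the co-depletion, 102 in the FoxO3 depletion and 88.3 in the control. Of the alpha ring chaperones, PSMG1 had 59.5 FPKM in the co-depletion, 57.8 in the FoxO3 depletion and 56.7 in the control, and PSMG3 had 35.6 in the co-depletion, 39.2 in the FoxO3 depletion and 37.4 in the control, with no call. PSMG4, the partner of PSMG3, had 27.3 FPKM in the co-depletion, 25.7 in the FoxO3 depletion and 21.6 in the control, and was called higher in the co-depletion. No test of the difference between chaperones and subunits is possible with 1 library per group.

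PSMC3IP carries a proteasome-like symbol but encodes a cofactor of meiotic recombination. It had 11.5 FPKM in the co-depletion, 12.1 in the FoxO3 depletion and 15 in the control, and was called lower in the co-depletion. Without it, the median over the other 45 genes was 0.29 in the co-depletion and 0.25 in the FoxO3 depletion. Its exons overlap the opposite-strand gene MLX over 29.9% of their bases, and reads of the pair cannot be told apart where the counting may ignore strand.

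Between the co-depletion and the FoxO3 depletion the proteasome genes differed little. The median log2 ratio was -0.01, with a range of -0.19 to 0.33. PSMA1 alone was called higher and none lower, where 8.39% of all analysed genes were called higher and 3.45% lower. At 1.5-fold none was called, against 1.35% of all analysed genes higher and 0.617% lower. None was called after GC adjustment, with 5.86% of all analysed genes called higher and 3.96% lower, or after adjustment for mean level, with 6.04% higher and 4.86% lower. PSMA1 had 15.9 FPKM in the co-depletion and 12.4 in the FoxO3 depletion, and its counting interval, 0.907 to 1.81, spans 1. The reads recovered for PSMA1 imply a length outside that of its transcripts, so this interval may be too wide. Counting intervals lay wholly above 1 for POMP, PSMA3, PSMA4, PSMB9, PSMC6 and PSME2. They lay wholly below 1 for PSMA5, PSMB2, PSMD2, PSMD3, PSMD5, PSMD10, PSMD11, PSMD13 and PSME3. The counts above and below 1 were thus 6 and 9, with PSMB9, PSME2 and PSMC6 on the higher side and several lid genes on the lower. No share over all analysed genes is given for these counts either.

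The ratio to the control moved with the GC content of the transcripts, in these genes and in all others. Across the 46 genes Pearson's r between GC content and log2 ratio was 0.49 in the co-depletion and 0.43 in the FoxO3 depletion, and Spearman's rho 0.42 in the co-depletion and 0.35 in the FoxO3 depletion. Over all analysed genes r was 0.41 in the co-depletion and 0.39 in the FoxO3 depletion, with rho of 0.44 in the co-depletion and 0.41 in the FoxO3 depletion. These are descriptions across genes that share 1 control library. The 23 proteasome genes of lower GC content, 34.3% to 48.7%, had a median log2 ratio of 0.06 in the co-depletion and 0.08 in the FoxO3 depletion. The 23 of higher GC content, 49.1% to 62%, had 0.31 in each. POMP, at 34.3%, PSMD14, at 36.9%, PSMC6, at 39.4%, and PSMD12, at 39.6%, were the poorest in GC, and none of them lay above the control.

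After the running median at each gene's GC content was subtracted, 7 genes that lay below 0 in both comparisons lay above it: POMP, PSMA2, PSMA3, PSMC6, PSMD12, PSMD14 and PSME4. PSMA1 crossed upward and PSMD9 downward in the co-depletion alone. POMP then had a log2 ratio of 0.25 in the co-depletion and 0.31 in the FoxO3 depletion, where the unadjusted values were -0.34 in the co-depletion and -0.49 in the FoxO3 depletion. PSMC6 had 0.22 in the co-depletion and 0.09 in the FoxO3 depletion, where the unadjusted values were -0.27 in the co-depletion and -0.53 in the FoxO3 depletion. POMP and the genes poorer in GC than it make up 0.221% of the analysed genes, so its adjustment rests on genes somewhat richer in GC than itself. The levels of both genes remain below the control, and the adjusted values say only that they lay less far below it than the genes of their bin. PSMD14 had 0.47 in the co-depletion and 0.72 in the FoxO3 depletion, and was called higher in both. PSMD6 kept its sign, at -0.15 in the co-depletion and -0.16 in the FoxO3 depletion, and PSMD10 too, at -0.23 in the co-depletion and -0.01 in the FoxO3 depletion, but neither was still called, and PSMC3IP was the only gene called lower. The set as a whole had a median of 0.28 in the co-depletion, with 18 called higher, and 0.31 in the FoxO3 depletion, with 21 called higher. Of all analysed genes, 16.1% were then called higher and 17.9% lower in the co-depletion, and 18.3% higher and 21.3% lower in the FoxO3 depletion. The genes behind these counts changed. In the co-depletion 13 of the higher calls were kept, those of PSMB8, PSMC3, PSMC5 and PSMG4 were lost, and PSMA4, PSMB1, PSMC2, PSMD11 and PSMD14 joined. In the FoxO3 depletion 14 were kept, those of PSMB4, PSMB8, PSMC5, PSME2 and PSME3 were lost, and PSMA2, PSMA4, PSMB1, PSMD5, PSMD12, PSMD14 and PSME4 joined. PSMA5 had the highest adjusted values, 0.80 in the co-depletion and 0.97 in the FoxO3 depletion. The constitutive core had an adjusted median of 0.37 in the co-depletion and 0.41 in the FoxO3 depletion. Adjusted for mean level instead, its median was 0.17 in the co-depletion and 0.16 in the FoxO3 depletion. The base and lid then had 0.14 in the co-depletion and 0.19 in the FoxO3 depletion. The 3 immunoproteasome genes then had 0.42 in the co-depletion and 0.22 in the FoxO3 depletion, so the order of the groups depends on the adjustment.

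**Figure D4:**
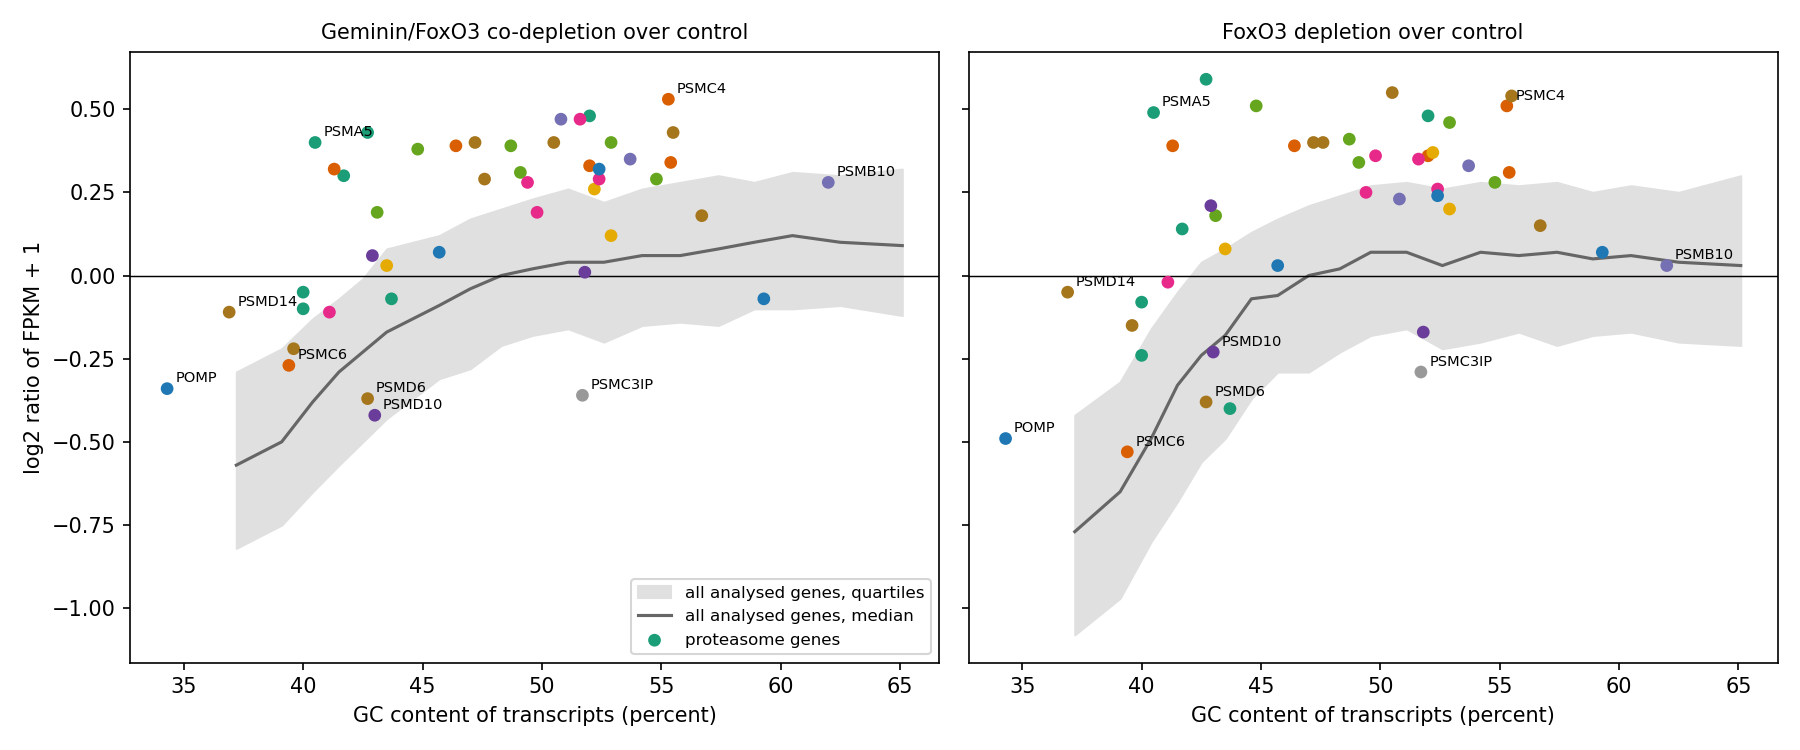
Log2 ratio of FPKM + 1 to the control against transcript GC content (percent) for the 46 proteasome genes (points, coloured by role as in the plot of ratios) in the co-depletion (left) and the FoxO3 depletion (right). The line and band give the median and quartiles of all analysed genes by GC content, PSMC6 lies below 0 as the line does at its GC content, and POMP lies at a lower GC content than the first point of the line.

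Some members share at least 10% of their exonic bases with another gene on the same strand, and how reads there were counted is not stated. PSMB10 shares 34.8% of its exonic bases, PSMA1 24.7%, PSMD9 19.9%, PSMA2 14.6% and PSMA6 14.1%. Their levels ran from 1.52 to 15.9 FPKM in the co-depletion, 1.56 to 12.4 in the FoxO3 depletion and 1.254 to 16.7 in the control. The other 41 genes had a median of 146 FPKM in the co-depletion, 150.1 in the FoxO3 depletion and 133 in the control, and none was below 11.5. Among these, PSMB9 shares 5.66% of its exonic bases on the same strand, PSMF1 2.95% and PSME2 2.15%. The alpha subunits PSMA1, PSMA2 and PSMA6 are each needed in every core particle, yet PSMA2 had 1.52 FPKM in the co-depletion, 1.56 in the FoxO3 depletion and 1.7 in the control. The base chaperone PSMD9 had 3.18 FPKM in the co-depletion, 2.71 in the FoxO3 depletion and 3.16 in the control. The part of exon sharing in these low values was not tested. PSMA6, at 2.03 FPKM in the co-depletion, 2.4 in the FoxO3 depletion and 1.254 in the control, has counting intervals of 0.862 to 3.09 in the co-depletion and 1.03 to 3.65 in the FoxO3 depletion. Without these 5 genes, 16 of 41 were called higher and 4 lower in the co-depletion, and 18 higher and 3 lower in the FoxO3 depletion. On the opposite strand, PSMC1 overlaps NRDE2 over 75.8% of its exonic bases, PSMD7 a noncoding transcript over 30.7% and PSMB8 its antisense gene over 20.6%, and these partners had at most 12.4 FPKM. PSMC5 overlaps FTSJ3, a ribosome biogenesis gene, over 19.5%, and FTSJ3 had 211 FPKM in the co-depletion, 220.0 in the FoxO3 depletion and 167 in the control. That is above PSMC5 itself in each library and also higher in the depleted libraries, and the part of these shared bases in the PSMC5 values was not tested.

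Proteasome genes are known targets of NFE2L1 and NFE2L2, factors that bind antioxidant response elements with a small MAF partner. Of the 9 measured genes of that pathway, 4 were called higher and 3 lower in each depletion against the control. Of all analysed genes, 13.8% were called higher and 26.6% lower in the co-depletion, and 14.2% higher and 30.2% lower in the FoxO3 depletion. The lower calls are near those shares, and the list is small. NFE2L1, the factor that answers proteasome inhibition, had 346 FPKM in the co-depletion, 339 in the FoxO3 depletion and 240.4 in the control, ratios of 1.44 (1.39 to 1.49) in the co-depletion and 1.41 (1.36 to 1.47) in the FoxO3 depletion, and was chosen for mention after its values were seen. NFE2L2 had 47.6 FPKM in the co-depletion, 40.9 in the FoxO3 depletion and 59.8 in the control. The small MAF gene MAFF had 43.4 FPKM in the co-depletion, 44.9 in the FoxO3 depletion and 28 in the control. KEAP1, which targets NFE2L2 for degradation, had 72.7 FPKM in the co-depletion, 73.3 in the FoxO3 depletion and 121 in the control. SYVN1, the ligase that marks NFE2L1 at the endoplasmic reticulum, had 34.2 FPKM in the co-depletion, 29.8 in the FoxO3 depletion and 53.8 in the control. KEAP1 and SYVN1, which act against these factors, were both called lower, while NFE2L1 was called higher and NFE2L2 lower in both comparisons. After GC adjustment NFE2L2 was at -0.17 in the co-depletion, no longer called, and -0.39 in the FoxO3 depletion. MAFG and MAFK were called higher in both. NGLY1 and DDI2 were not called on the log2 scale, with co-depletion ratios of 0.906 (0.798 to 1.03) and 0.794 (0.704 to 0.895). Their FoxO3 depletion ratios were 0.94 (0.825 to 1.07) and 0.88 (0.78 to 0.992). The part of this pathway in the proteasome values was not tested.

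Promoters of the 40 analysed members found in RefSeq (build GRCh38.p14, from 250 bases before to 50 after each start) were searched on both strands. The antioxidant response element core TGACNNNGC was in 11 of 40, or 27.5%, against 15.9% of 9181 protein-coding analysed genes and 13.2% of all 27305 with a promoter. The forkhead motif GTAAACA was in 2, PSMB2 and PSMD5, or 5%, against 3.01% and 3.66%. CCAAT was in 45%, against 42% and 37%, the ETS motif CCGGAAGT in 15%, against 8.82% and 4.13%, and the STAT motif TTCNNNGAA in 15%, against 7.53% and 8.09%. Members with the antioxidant core had a median log2 ratio of 0.29 in the co-depletion, against 0.28 in those without, and 0.21 in the FoxO3 depletion, against 0.25. A match describes letters in the window and not binding. For 4 members on which the results turn, the 250 bases before the start are shown 5′ to 3′ on the gene's strand, with any match in capitals. PSMB5 and PSMB9 are a constitutive and an inducible catalytic subunit, and PSMC4 and PSMC6 are the ATPases of highest and lowest unadjusted ratio. After GC adjustment PSMC2 was the highest, at 0.61 in the co-depletion and 0.71 in the FoxO3 depletion.

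PSMB5: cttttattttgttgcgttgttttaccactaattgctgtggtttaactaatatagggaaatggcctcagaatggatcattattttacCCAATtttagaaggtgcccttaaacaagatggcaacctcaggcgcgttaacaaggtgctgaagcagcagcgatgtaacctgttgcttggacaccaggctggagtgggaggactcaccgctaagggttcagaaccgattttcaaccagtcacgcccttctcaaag
PSMB9: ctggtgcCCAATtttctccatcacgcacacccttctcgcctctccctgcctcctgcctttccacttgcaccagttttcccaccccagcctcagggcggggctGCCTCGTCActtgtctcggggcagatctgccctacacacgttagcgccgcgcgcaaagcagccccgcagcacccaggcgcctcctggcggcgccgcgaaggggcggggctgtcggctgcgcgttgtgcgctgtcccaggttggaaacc
PSMC4: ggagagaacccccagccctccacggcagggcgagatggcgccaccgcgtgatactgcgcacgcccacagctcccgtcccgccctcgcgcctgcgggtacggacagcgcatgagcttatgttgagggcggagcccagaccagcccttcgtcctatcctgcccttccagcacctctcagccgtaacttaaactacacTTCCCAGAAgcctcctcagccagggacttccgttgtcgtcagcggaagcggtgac
PSMC6: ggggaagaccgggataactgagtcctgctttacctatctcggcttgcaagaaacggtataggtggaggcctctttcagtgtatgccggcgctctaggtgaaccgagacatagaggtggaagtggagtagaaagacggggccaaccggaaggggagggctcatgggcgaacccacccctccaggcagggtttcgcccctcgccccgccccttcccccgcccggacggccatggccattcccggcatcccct

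The PSMB5 stretch is chr14:23035221-23035470 on the minus strand, with a CCAAT from 164 to 160 bases before the start. PSMB5 has 2 listed starts and is also among the members with a STAT match, which lies outside the bases shown. The PSMB9 stretch is chr6:32853942-32854191 on the plus strand, with a CCAAT from 243 to 239 and the antioxidant core, read on the opposite strand, from 148 to 140 bases before the start. The PSMC4 stretch is chr19:39970915-39971164 on the plus strand, with the STAT motif from 55 to 47 bases before the start. The PSMC6 stretch, chr14:52706950-52707199 on the plus strand, holds none of the 5 motifs.

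Other factors around the proteasome held calls in both directions. Of 11 deubiquitinases, ligases and shuttle factors, 2 were called higher and 3 lower in the co-depletion, and 3 higher and 3 lower in the FoxO3 depletion. These counts are near the shares over all analysed genes, 13.8% higher and 26.6% lower in the co-depletion and 14.2% higher and 30.2% lower in the FoxO3 depletion, and so are no result about this list. UCHL5, a deubiquitinase that ADRM1 brings to the base, had 37.6 FPKM in the co-depletion, 35 in the FoxO3 depletion and 52.6 in the control. UBQLN1, a shuttle factor, had 64.5 FPKM in the co-depletion, 65.3 in the FoxO3 depletion and 89.9 in the control. After GC adjustment UCHL5 and UBQLN1 were no longer called lower. The adjusted log2 ratio of UCHL5 was 0.05 in the co-depletion and 0.12 in the FoxO3 depletion. That of UBQLN1 was -0.22 in the co-depletion and -0.15 in the FoxO3 depletion. Of 7 subunits and partners with other symbols, 1 was called higher and 1 lower in the co-depletion, and 2 higher and 2 lower in the FoxO3 depletion. AKIRIN1 was the gene called lower in both, with 29.4 FPKM in the co-depletion, 29.8 in the FoxO3 depletion and 55.9 in the control. No role of AKIRIN1 at the proteasome is shown here. Its relative AKIRIN2 went the other way, with 20.5 FPKM in the co-depletion, 24.3 in the FoxO3 depletion and 18.8 in the control. AKIRIN2 was called higher in the FoxO3 depletion alone, and that call ended after GC adjustment, at a log2 ratio of 0.29. Of 6 ubiquitin and E1 genes, none was called higher and 2 lower in each comparison with the control. The lists of 7 and of 6 are too small to set against the shares over all analysed genes, so neither count is a result about its list. UBB, a polyubiquitin gene, had 133 FPKM in the co-depletion, 152 in the FoxO3 depletion and 243 in the control. UBA6, an E1 enzyme, had 33 FPKM in the co-depletion, 23.8 in the FoxO3 depletion and 60.2 in the control. After GC adjustment UBA6 had a log2 ratio of -0.27 in the co-depletion, no longer called, and -0.52 in the FoxO3 depletion. AKIRIN1 and UBB were still called lower in both after that adjustment. The difference of these 3 lists from the subunits was not tested.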

How the data were processed

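RNA of 3 MDA-MB-231 cultures was sequenced, 1 library per group, and groups were taken from the titles read with the series' design text. Per the labels' protocols, 3 ug of total RNA went into each Illumina TruSeq RNA library. The deposited files hold FPKM per gene as the authors computed it. The submitters' processing notes name TopHat2 2.0.9, and the sources used here give no counter, build, annotation or strand option.

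GENCODE 29 gave names, exons, transcript lengths and GC content, for 45342 of the 48162 gene IDs. The members and the lists were chosen with earlier results of these data known. The rule named every member, up to 4 genes of each related list by size of ratio, and FOXO3 and GMNN as the check of labels. A few genes outside it are named to place members. Some genes that the rule takes are not reported here.

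FPKM steps gave whole reads, to within 0.0001 reads, for 20587 of the 20591 genes with a value in 2 or more libraries and for 1 of 1000 random values. If a gene's true reads share a divisor, the recovered number is smaller, so the exact 95% Clopper-Pearson intervals can be too wide. They cover counting error only and compare libraries, not conditions. Each comparison is log2 of FPKM + 1 with a size rule of 25% (20% for lower genes; alternatively 1.5-fold) over the 12649 genes with a mean of at least 1 FPKM. GC and level adjustments subtract the median ratio over 50 bins. The scripts were tested on simulated data and used Python 3.11.15, numpy 2.4.6, pandas 2.3.3, scipy 1.17.1 and matplotlib 3.10.9.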

Additional observations from a re-analysis of the deposited data

How the results depend on the processing

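No paired analysis was possible because each group holds 1 library, and for the same reason no replicate could be left out. The median log2 ratio of the proteasome genes kept its direction in both comparisons with the control under each alternative run: a pseudocount of 0.1, a minimum mean of 5 FPKM or none, median-ratio or TPM scaling, adjustment for GC content, for GC content and length, or for mean level, and protein-coding genes alone. Adjustment for mean level lowered it to 0.16 in the co-depletion and 0.15 in the FoxO3 depletion, and the genes called higher to 8 in the co-depletion and 7 in the FoxO3 depletion. At 1.5-fold, 0 were called higher and 0 lower in the co-depletion, and 1 higher and 0 lower in the FoxO3 depletion. Genes called lower came to 1 in the co-depletion and 2 in the FoxO3 depletion after rescaling by the median ratio, and to 1 in each after adjustment for GC content or for GC content and length. The gene called higher in the co-depletion against the FoxO3 depletion was lost (0 called) after that rescaling, the GC, GC and length or level adjustment, and at 1.5-fold. It was also lost without the genes that share at least 10% of their exonic bases on the same strand, an alternative chosen after seeing the data. POMP reversed to 0.25 in the co-depletion and 0.31 in the FoxO3 depletion after GC adjustment, and to 0.24 and 0.29 after that for GC and length, and PSMC6 reversed in the FoxO3 depletion to 0.09 and 0.04. Of 138 values of single genes, 15 moved beyond their counting interval on rescaling by the median ratio, 37 on GC adjustment, 51 on GC and length and 51 on level, and none on the other settings. The median half-width of a counting interval was 0.10 on the log2 scale, so differences below that are not detectable at this depth for a typical member. The cause of these changes was not tested.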

Other observations

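Noncoding loci named for proteasome genes were mostly silent. Of 32 pseudogenes with such symbols, 25 were listed at 0 in all 3 libraries and 1, PSMC1P1, had a mean of at least 1 FPKM, with 2.59 FPKM in the co-depletion, 4.08 in the FoxO3 depletion and 2.77 in the control. PSMA3-AS1, an antisense RNA at the locus of the alpha subunit gene PSMA3, had 23.5 FPKM in the co-depletion, 19.1 in the FoxO3 depletion and 43.1 in the control. Its ratio to the control was 0.545 (counting interval 0.473 to 0.628) in the co-depletion and 0.443 (0.377 to 0.519) in the FoxO3 depletion, while PSMA3 itself had ratios of 0.963 and 0.849. PSMB8-AS1 had 2.18 FPKM in the co-depletion, 2.39 in the FoxO3 depletion and 2.39 in the control, and PSMG3-AS1 had 1.32, 1.59 and 1.72 FPKM in the same libraries. These loci were looked up after the values of the coding genes were seen. Where the counting ignored strand, reads of an antisense gene and its partner cannot be told apart.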
